A study of Mus musculus with 4 samples.

Results

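*Prdm14*, *Nanog*, *Tbx3* and *Nr5a2* are 4 transcription factor genes of the naive pluripotency network, and they were followed by name among the 1577 genes of the authors' deposited expression table. All 4 were found in it, by gene ID and GENCODE M21 symbol. The values come from bulk RNA-sequencing of 46C mESCs, a mouse ESC line that carries a GFP reporter in the neural gene *Sox1*, grown in serum-containing medium. The Go6983 group had been exposed for 24 h to 5 μM Go6983, an inhibitor of several PKC isoforms (2 samples), and the NT group received control medium (2 samples). Both groups are of the same line, so the comparison describes 1 cell line at 1 dose and 1 time. Whether LIF was present in the sequenced cultures, and whether the replicates were separate cultures, is not given in the sources used here, so p-values measure the spread between these samples, which may be technical.

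Naive pluripotency is the state of the epiblast before implantation, and mESCs hold it through a network of transcription factors that activate one another and repress genes of later stages. *Nanog* encodes a homeodomain factor at the centre of that network. *Tbx3* encodes a T-box factor that acts downstream of PI3K and sustains *Nanog*, *Nr5a2* encodes an orphan nuclear receptor (Lrh-1) that binds regulatory DNA of *Pou5f1* and *Nanog*, and *Prdm14* encodes a zinc finger protein with a PR domain that represses *de novo* DNA methylation and FGF receptor signaling and is needed for primordial germ cells. The comparison asks how much the RNA of each factor differed between Go6983-treated and NT cells.

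The table is restricted. Its genes differ between the group means of the deposited log2 values by at least 1.00 log2 units in either direction, so a gene that changed less has no value here. The 4 genes could be seen in it only because they differed by at least 2-fold, and their direction and size are not independent of that selection. Over these genes the libraries held 1054236 and 927603 reads in the Go6983 samples and 929813 and 859777 in the NT samples, and the total depth of the libraries is unknown. Of 12 core pluripotency genes only *Utf1* was listed, with 10757 and 9512 normalized counts in the Go6983 samples and 22464 and 22283 in the NT samples. *Pou5f1* and *Sox2*, the markers that define mESCs, were not analysed here. Of 13 primitive endoderm markers 0 were listed, and of 10 fibroblast markers only *Col1a2* was, with 78.4 and 82.4 normalized counts in the Go6983 samples and 31.8 and 40.9 in the NT samples (limma adjusted p = 0.0103, and 0.104 without Go6983 replicate 1 or 0.118 without Go6983 replicate 2). The part of other cells in the results was not tested.

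All 4 factors were higher in Go6983-treated mESCs, each by slightly more than 2-fold. Their log2 fold changes fell between 1.06 and 1.19, and for each gene both Go6983 samples lay above both NT samples. The deposited values have the form log2(normalized count + 1), where a normalized count is reads divided by a size factor of the library. This form was read from the values, which fall on whole reads with the same step for every gene of a library, whereas the figure legends of the study speak of FPKM, a unit scaled by gene length. limma was fitted to these values, the Benjamini-Hochberg adjustment covered all 1577 genes, and the threshold for a call was 0.05. By this rule 4 of the 4 factors were called higher, where 68.8% of all listed genes were. Both Go6983 samples exceeded both NT samples for 69.6% of the listed genes, so neither count sets the 4 factors apart from the table. An exact permutation test of 2 against 2 samples cannot go below p = 0.33 (two-sided), and the calls rest on a variance shared between the listed genes. In bulk RNA, a larger share of cells expressing a gene and more RNA per cell cannot be told apart.

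*Prdm14* (ENSMUSG00000042414) lies on the minus strand of chromosome 1 of GRCm38, from 13113457 to 13127163, with 1 annotated transcript. It had 1899.7 and 2141 normalized counts in the Go6983 samples, against 838 and 929 in the NT samples. The lowest Go6983 sample thus stood 971 normalized counts above the highest NT sample. The means were 2020.2 ± 170.5 in Go6983-treated cells and 884 ± 64.0 in NT cells (SD, n = 2 each). The fitted log2 fold change was 1.19 with a 95% confidence interval of 0.91 to 1.48 (SE 0.11, limma adjusted p = 0.000484). As a fold this was 2.28, with an interval from 1.88 to 2.78. *Prdm14* had the highest estimate of the 4 factors and also the widest interval.

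*Nanog* (ENSMUSG00000012396) lies on the plus strand of chromosome 6, from 122707489 to 122714633, with 3 annotated transcripts. Normalized counts were 33595 and 34977 in the Go6983 samples, against 15992 and 16902 in the NT samples. The groups were separated by 16693 normalized counts. *Nanog* averaged 34286 ± 977 in Go6983-treated cells and 16447 ± 643 in NT cells (SD, n = 2 each). This gave 1.06 log2 units with a 95% confidence interval of 0.83 to 1.29 (SE 0.09, limma adjusted p = 0.000428). The fold of 2.08, with an interval from 1.78 to 2.44, was the lowest estimate of the 4. Set against each other singly, a Go6983 and an NT sample differed by 1.99-fold to 2.19-fold. *Nanog* has annotated processed pseudogenes, *Nanog-ps1* and *Nanog-ps2*, whose reads may be shared with it, and the authors' counter is not given in the sources used here.

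*Tbx3* (ENSMUSG00000018604) lies on the plus strand of chromosome 5, from 119670669 to 119684724, with 6 annotated transcripts. It had 20326 and 21039 normalized counts in the Go6983 samples, against 9284 and 9599 in the NT samples, and the groups were 10727 normalized counts apart. The means were 20683 ± 504 in Go6983-treated cells and 9441 ± 223 in NT cells (SD, n = 2 each). The log2 fold change of *Tbx3* was 1.13, with a 95% confidence interval of 0.91 to 1.35 (SE 0.09, limma adjusted p = 0.000428). As a fold this was 2.19, with an interval from 1.88 to 2.55. *Tbx3* had the smallest relative spread between replicates of the 4 factors, with a coefficient of variation of 2.44% in Go6983-treated cells and 2.36% in NT cells.

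*Nr5a2* (ENSMUSG00000026398) lies on the minus strand of chromosome 1, from 136842571 to 136960448, with 6 annotated transcripts. Its normalized counts were 2724 and 2923 in the Go6983 samples, against 1329.7 and 1268 in the NT samples, which left 1394 between the groups. *Nr5a2* averaged 2824 ± 141 in Go6983-treated cells and 1299 ± 43.6 in NT cells (SD, n = 2 each). Its log2 fold change was 1.12, with a 95% confidence interval of 0.88 to 1.36 (SE 0.10, limma adjusted p = 0.000428). As a fold this was 2.17, with an interval from 1.84 to 2.56. For all 4 factors the lower bound of the interval was below 2-fold.

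**Figure D1:**
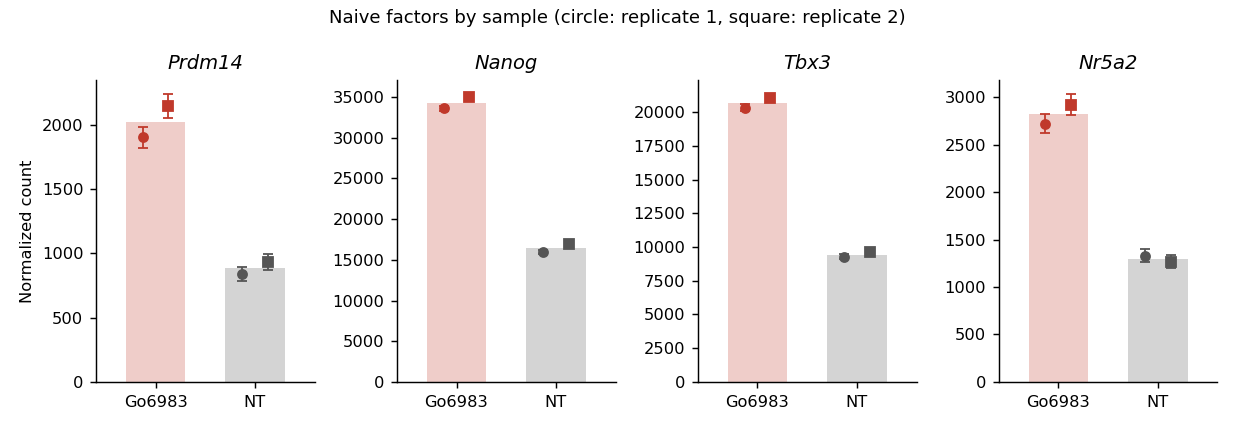
Normalized counts of *Prdm14*, *Nanog*, *Tbx3* and *Nr5a2* (vertical axes from 0) in the 2 Go6983 samples (red) and the 2 NT samples (grey). Bars are group means, points are samples and whiskers are 95% Poisson intervals of the reads, which cover counting error only. For *Prdm14* the Go6983 samples sit at 1899.7 and 2141 and the NT samples at 838 and 929, and in each panel both red points are above both grey ones.

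Counting error was small beside the difference between groups, and for several genes smaller than the difference between replicates. *Prdm14*, with the fewest reads, was counted with 2035 and 2000 reads in the Go6983 samples and 843 and 909 in the NT samples. The counting error of *Prdm14* was 2.22% and 2.24% in the Go6983 samples and 3.44% and 3.32% in the NT samples, against coefficients of variation between replicates of 8.44% in Go6983-treated cells and 7.24% in NT cells. For *Nanog*, with 35988 and 32677 reads in the Go6983 samples and 16080 and 16541 in the NT samples, the counting error was at most 0.789%, against a coefficient of variation of 2.85% in Go6983-treated cells and 3.91% in NT cells. The exact 95% Poisson intervals of the Go6983 samples did not meet for *Prdm14* (1818 to 1984 and 2048 to 2237 normalized counts), and they met for *Nr5a2* (2626 to 2825 and 2815 to 3035). Reads were counted without molecular identifiers as far as the sources say, so these intervals cover counting error only.

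Replicate 2 was the higher sample of its group for *Prdm14*, *Nanog* and *Tbx3*, in Go6983-treated and in NT cells alike. *Nr5a2* followed this in the Go6983 samples, where replicate 1 was 0.10 log2 units below replicate 2, but not in the NT samples, where it was 0.07 above. Over the 894 listed genes whose mean reached 50 normalized counts, the median difference between replicate 1 and replicate 2 was -0.005 log2 units in the Go6983 samples and 0.014 in the NT samples. The size of that difference had a median of 0.18 in the Go6983 samples and 0.21 in the NT samples. The differences of *Prdm14*, at 0.17 in the Go6983 samples and 0.15 in the NT samples, came nearest to these medians, and those of the other factors were smaller in both groups.

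Among the genes that were higher, the 4 factors were high in level and low in size of change. By mean normalized count *Nanog*, *Tbx3*, *Nr5a2* and *Prdm14* took places 3, 10, 89 and 114 of the 1577 listed genes. In log2 fold change *Prdm14*, *Tbx3*, *Nr5a2* and *Nanog* took places 814, 902, 920 and 997 of the 1099 genes with a positive value. *Nanog* thus exceeded 9.28% of them and *Prdm14* 25.9%. The median of the 4 was 1.13, against 1.42 for the genes with a positive value and 1.21 for all listed genes. Between the lowest and the highest of the 4 lay 184 of the 1099 genes, these 4 included. The places in fold change were taken over genes of every level, and no comparison with genes of like level was made. Of the 1577 listed genes, 894 reached a mean of 50 normalized counts.

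Levels of different genes were compared per kilobase of annotated exon, with exons of all GENCODE M21 transcripts joined. On this scale *Nanog* had 15293 ± 436 normalized counts per kb in Go6983-treated cells and 7336 ± 287 in NT cells (SD, n = 2 each). *Tbx3* had 3122 ± 76.1 per kb in Go6983-treated cells and 1425 ± 33.6 in NT cells. *Prdm14* had 788 ± 66.5 per kb in Go6983-treated cells and 345 ± 24.9 in NT cells, and *Nr5a2* had 479 ± 23.9 per kb in Go6983-treated cells and 220.2 ± 7.38 in NT cells. The order was the same in both groups, and no neighbours in it overlapped. By normalized count without the length, *Nr5a2* was above *Prdm14*, so the order of this pair rests on the exon lengths, which are 5899 bases for *Nr5a2* and 2564 for *Prdm14*. Of the 1572 listed genes with an annotated length, *Nanog* had the second highest level per kb, *Tbx3* was in place 22, *Prdm14* in place 83 and *Nr5a2* in place 125.

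**Figure D2:**
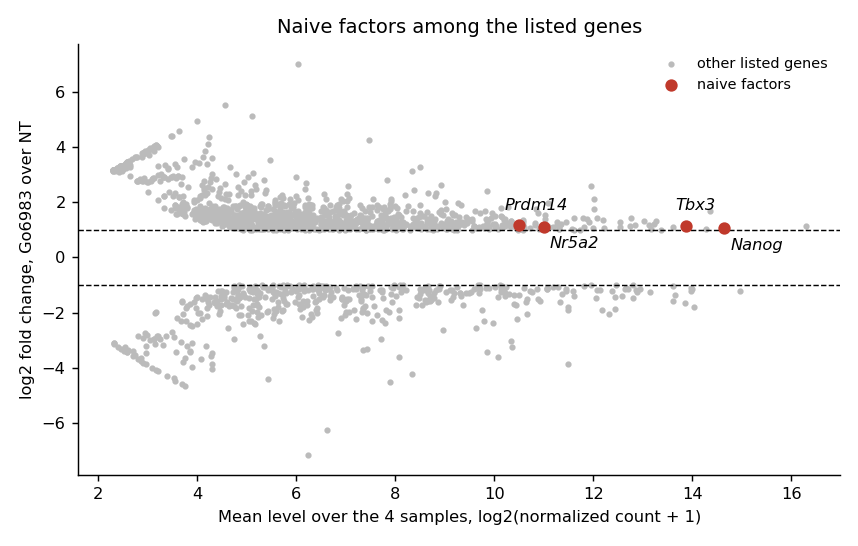
Each point is 1 of the 1577 listed genes, with its mean level as log2(normalized count + 1) on the horizontal axis and its log2 fold change, Go6983 over NT, on the vertical axis; dashed lines mark a 2-fold difference. The 4 naive factors (red) lie to the right, at high levels, and just above the upper line, at 1.06 to 1.19.

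The 4 factors changed by nearly the same factor, so their proportions to one another were largely kept. The 2-fold selection of the table bounds such changes from below. The range of the 4 held 184 of the 1099 genes with a positive value, so its narrowness is not particular to them. The ratio of a pair within 1 library does not depend on how that library was scaled, and it was computed for all 6 pairs as a description, with no test. *Tbx3* over *Nr5a2* was 7.46 and 7.20 in the Go6983 samples, against 6.98 and 7.57 in the NT samples, a difference of 0.012 log2 units with overlapping groups. *Nanog* over *Nr5a2* was 12.33 and 11.97 in the Go6983 samples, against 12.03 and 13.33 in the NT samples, and the groups overlapped in the same way.

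Of the 6 ratios, only *Prdm14* over *Nanog* and *Nanog* over *Tbx3* did not overlap between groups. *Prdm14* over *Nanog* was 0.0565 and 0.0612 in the Go6983 samples, against 0.0524 and 0.0550 in the NT samples, which is 0.13 log2 units higher in Go6983-treated cells. *Nanog* over *Tbx3* was 1.65 and 1.66 in the Go6983 samples, against 1.72 and 1.76 in the NT samples, or -0.071 log2 units. Both *Prdm14* over *Tbx3* and *Prdm14* over *Nr5a2* overlapped, with differences of 0.061 and 0.073 log2 units. With 2 samples per group these differences have a smallest exact permutation p of 0.33 (two-sided), so an unequal response of the factors was not detectable by that test. By the same test, groups come apart with a probability of 0.33 where nothing differs. A count of 2 of 6 ratios apart does not exceed that share. The 6 ratios share genes and are not independent, and no such count was made over pairs of other listed genes.

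**Figure D3:**
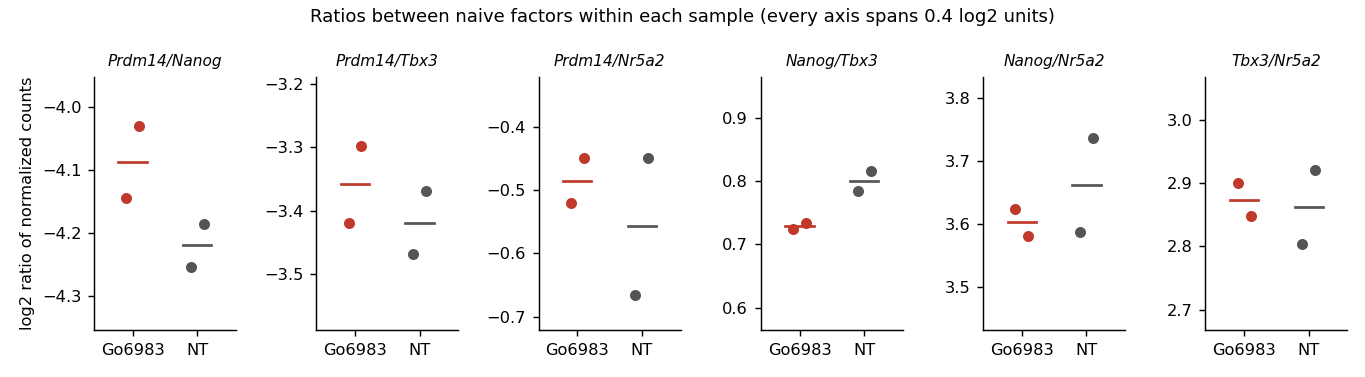
log2 ratio of normalized counts for the 6 pairs of naive factors within each of the 2 Go6983 samples (red) and the 2 NT samples (grey); points are samples, lines are group means and every vertical axis spans 0.4 log2 units. The groups are apart for *Prdm14*/*Nanog* and *Nanog*/*Tbx3*, by 0.13 and -0.071, and overlap for the other pairs.

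Promoter sequence was read for the factors that rose together, to show what DNA lies at their start sites. The RefSeq promoter table (GRCm38.p6, 250 bases before to 50 after an annotated start, 300 bases in all) held 2 of the 4, *Nanog* and *Nr5a2*. *Prdm14* and *Tbx3* are named only. The window of the 5′ start of *Nanog* is chr6:122707239-122707538 on the plus strand, and it reaches a little way into the first exon. *Nanog* has a second annotated start at 122707565, and its overlapping window, chr6:122707315-122707614, is not printed. *Nr5a2* has starts in different places of the gene on the minus strand, with windows at chr1:136960399-136960698 for the upstream start and chr1:136953581-136953880 for the downstream one. Capitals mark every match, on either strand, to the 12 motifs searched.
Nanog: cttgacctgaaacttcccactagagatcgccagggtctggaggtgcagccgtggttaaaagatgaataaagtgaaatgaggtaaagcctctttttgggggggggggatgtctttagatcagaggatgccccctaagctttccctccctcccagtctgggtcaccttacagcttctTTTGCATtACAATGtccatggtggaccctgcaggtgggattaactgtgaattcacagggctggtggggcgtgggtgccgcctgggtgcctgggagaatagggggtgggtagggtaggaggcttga
Nr5a2 upstream start: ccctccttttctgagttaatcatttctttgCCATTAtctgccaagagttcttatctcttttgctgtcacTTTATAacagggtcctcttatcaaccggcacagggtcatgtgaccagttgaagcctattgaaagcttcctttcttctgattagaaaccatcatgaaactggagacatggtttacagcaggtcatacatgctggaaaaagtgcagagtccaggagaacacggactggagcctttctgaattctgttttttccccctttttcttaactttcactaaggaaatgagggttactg
Nr5a2 downstream start: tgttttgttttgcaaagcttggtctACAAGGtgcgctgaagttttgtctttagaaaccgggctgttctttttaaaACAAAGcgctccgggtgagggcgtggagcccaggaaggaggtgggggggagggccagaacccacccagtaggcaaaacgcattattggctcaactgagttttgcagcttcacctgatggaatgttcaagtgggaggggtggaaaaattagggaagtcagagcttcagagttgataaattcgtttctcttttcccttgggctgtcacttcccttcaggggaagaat

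In the printed *Nanog* window the capitals are a POU core, TTTGCAT, from -75 to -69 relative to the 5′ start, followed 3′ by a Sox core, ACAANG, from -67 to -62. Counted from the second start, this POU core lies from -151 to -145 and this Sox core from -143 to -138. As background, Oct4 and Sox2 bind a composite element of this kind in the proximal *Nanog* promoter. The letters TTTGCAT, a search added after the sequence was seen, are found in 4.63% of the 32851 RefSeq promoters of the same length, and ACAANG in 41.2% of them. The downstream *Nr5a2* window had matches to the Sox core at -225 and -175, and the upstream one a match to TAATGG, a Nanog motif, on the opposite strand at -220 and a TATA box match, TATAAA, on the opposite strand at -181. TAATGG is in 7.73% and TATAAA in 13.6% of all promoters. The octamer ATGCAAAT, the Nr5a2 and Esrrb half-site AAGGTCA, the T-box motif GGTGTGA, the Prdm14 motif GGTCTCTAA, the Stat motif TTCCNGGAA, the Klf4 motif GGGTGTGG, the GC box GGGCGG and the TPA response element TGANTCA, at which AP-1 answers PKC, were not in these windows. Their shares over all promoters were 1.74%, 4.72%, 3.98%, 0.256%, 1.15%, 3.56%, 35.7% and 7.81%. A match describes letters and not a bound site, and a missing one says nothing about the factor.

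The RNA genes next to *Tbx3* rose along with it. *Tbx3os1*, an antisense gene that starts head to head with *Tbx3* on chromosome 5 (119570130 to 119671365), had 653 and 802 normalized counts in the Go6983 samples, against 226 and 261 in the NT samples (log2 fold change 1.57, SE 0.16, limma adjusted p = 0.000491). It was 0.0321 and 0.0381 of the *Tbx3* value in the Go6983 samples, against 0.0243 and 0.0271 in the NT samples, so the groups were apart by 0.45 log2 units, a ratio chosen after its values were seen. The exons of the pair share 115 bases, 1.74% of the *Tbx3* exon length, and whether reads were counted by strand is not given in the sources used here. *Tbx3os2*, a long intergenic noncoding RNA gene 0.371 kb beyond the 3′ end of *Tbx3*, had 123.2 and 83.5 normalized counts in the Go6983 samples, against 39.8 and 34.7 in the NT samples (log2 fold change 1.42, limma adjusted p = 0.00628, and 0.0557, 0.0928 and 0.0541 without NT replicate 2, Go6983 replicate 1 and Go6983 replicate 2).

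Genes near the other factors did not share one direction. Within 500 kb of *Prdm14*, *Slco5a1*, an organic anion transporter gene, had 330.5 and 379 normalized counts in the Go6983 samples and 145 and 114 in the NT samples (log2 fold change 1.45, limma adjusted p = 0.00101). *Sulf1*, a sulfatase that edits heparan sulfate at the cell surface, had 1582 and 1434 in the Go6983 samples and 4040 and 3508 in the NT samples (log2 fold change -1.32, limma adjusted p = 0.000428). Within 500 kb of *Nanog*, the C-type lectin gene *Clec4a1* had 6.53 and 13.9 in the Go6983 samples and no reads in the NT samples. The long noncoding gene *1700063H04Rik* had 28.9 and 32.1 in the Go6983 samples and 110.4 and 93.0 in the NT samples (limma adjusted p = 0.00224). No protein-coding gene within 500 kb of *Nr5a2* or *Tbx3* was listed.

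Among 25 genes of the naive network, 7 were listed, of which 6 were called higher, these 4 factors included, and 1 lower. The shares called over the whole table were 68.8% higher and 29.7% lower, so the count does not set the network apart. The remaining risers were *Tfcp2l1*, a LIF-responsive transcription factor, with 30862 and 33414 normalized counts in the Go6983 samples and 10262 and 9535 in the NT samples (log2 fold change 1.70, limma adjusted p = 0.000375), and *Klf4*, a Krüppel-like factor, with 13763 and 14563 in the Go6983 samples and 6796 and 7224 in the NT samples (log2 fold change 1.01, limma adjusted p = 0.000446). *Gbx2*, a homeobox gene, had 265 and 325 in the Go6983 samples and 578 and 715 in the NT samples (log2 fold change -1.13, limma adjusted p = 0.00201, and 0.0536 without Go6983 replicate 1). The median log2 fold change of the 7 was 1.12, against 1.21 for all listed genes. The other members of the network, *Esrrb*, *Klf2* and *Zfp42* among them, were not analysed here.

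Of 16 partners and reported targets of Prdm14, 6 were listed, of which 2 were called higher and 4 lower, against 68.8% and 29.7% of all listed genes, with a median log2 fold change of -1.38. The 3 *Dnmt3* genes, which Prdm14 is known to repress in mESCs, had log2 fold changes of -1.65 (*Dnmt3a*), -1.79 (*Dnmt3b*) and -1.22 (*Dnmt3l*). *Fgfr2*, an FGF receptor gene on which Prdm14 is also known to act, had 259.5 and 174 normalized counts in the Go6983 samples and 690.2 and 560.0 in the NT samples (log2 fold change -1.54, SE 0.23, limma adjusted p = 0.00177). *Cbfa2t3*, a paralog of the corepressor gene *Cbfa2t2* whose product binds Prdm14, had 133 and 106 in the Go6983 samples and 41.8 and 38.8 in the NT samples (log2 fold change 1.54, limma adjusted p = 0.00255, and 0.0636 without Go6983 replicate 1). *Tet2*, a 5mC dioxygenase gene, had 17024 and 16422 in the Go6983 samples and 10783 and 5608 in the NT samples (limma adjusted p = 0.0137, and 0.186 without Go6983 replicate 1 or 0.177 without Go6983 replicate 2). *Suv39h1*, *Suv39h2* and *Cbfa2t2* were not analysed here.

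Few germline genes were listed. Of 12 genes of germ cells and primordial germ cells, in which *Prdm14* acts beside *Prdm1* and *Tfap2c*, 3 were listed and called higher, a count that 68.8% of all listed genes called higher does not set apart. *Tfap2c*, an AP-2 factor of primordial germ cells and trophoblast, had 3326 and 3708 normalized counts in the Go6983 samples and 1486 and 1364 in the NT samples (log2 fold change 1.30, SE 0.11, limma adjusted p = 0.000428). *Stra8*, a retinoic acid-induced gene of meiotic entry, had 478 and 488 in the Go6983 samples and 183 and 171 in the NT samples (log2 fold change 1.45, limma adjusted p = 0.000446). *Kit*, the stem cell factor receptor gene, had 5472 and 5516 in the Go6983 samples and 2677 and 2605 in the NT samples (log2 fold change 1.06, limma adjusted p = 0.000428). *Prdm1*, *Nanos3* and *Dppa3* were not analysed here.

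**Figure D4:**
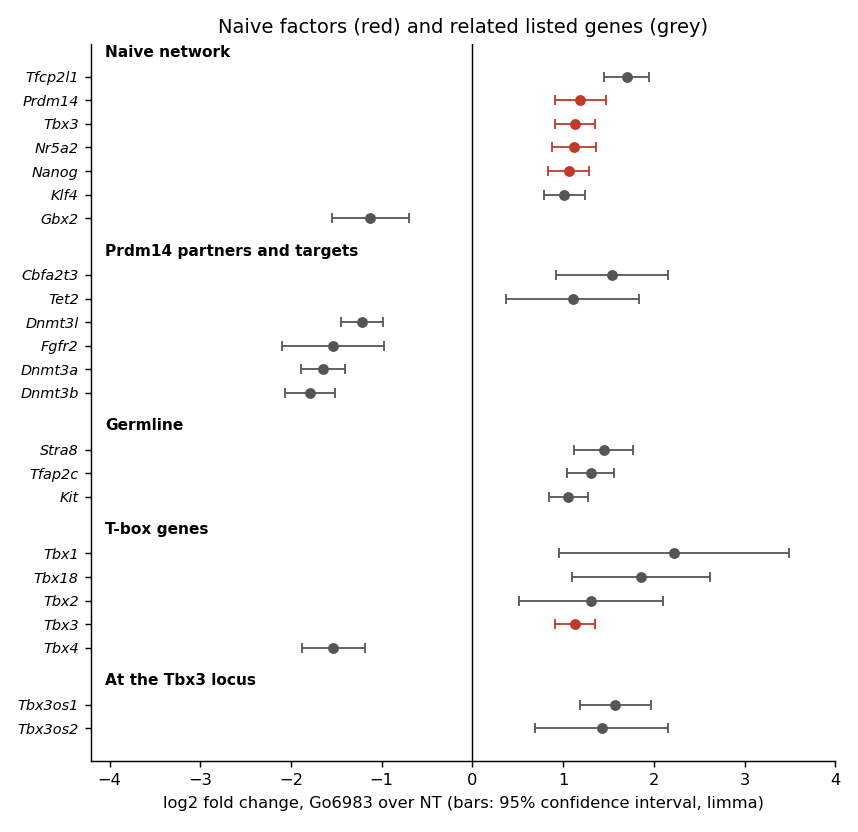
log2 fold change, Go6983 over NT (horizontal axis), of the naive factors (red) and of listed genes related to them (grey), grouped by list; bars are 95% confidence intervals from limma. The 4 naive factors fall between 1.06 and 1.19, *Tfcp2l1* is above them at 1.70, and *Gbx2*, *Fgfr2*, the *Dnmt3* genes and *Tbx4* are below 0.

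Only paralogs that differed by at least 2-fold have values here, and those listed were called in both directions. Of 17 T-box genes 5 were listed, with 4 called higher and 1 lower, close to the shares of the whole table (68.8% and 29.7%). *Tbx4*, a hindlimb factor gene, had 214 and 183 normalized counts in the Go6983 samples and 577 and 573 in the NT samples (log2 fold change -1.53, SE 0.14, limma adjusted p = 0.000446). *Tbx2*, the closest relative of *Tbx3*, had 76.5 and 68.5 in the Go6983 samples and 34.8 and 23.5 in the NT samples (limma adjusted p = 0.0106, and 0.0521, 0.131 and 0.114 without NT replicate 2, Go6983 replicate 1 and Go6983 replicate 2). *Tbx18* had 65.3 and 67.4 in the Go6983 samples and 18.9 and 16.3 in the NT samples (limma adjusted p = 0.00278, and 0.0626 without Go6983 replicate 1 or 0.0666 without Go6983 replicate 2). *Tbx1* had at most 33.2 normalized counts in any sample, and its limma adjusted p of 0.00868 moved to 0.0652 or 0.0991 when Go6983 replicate 1 or 2 was left out and to 0.0599 when NT replicate 2 was. Of 15 PR domain genes, *Prdm6* was listed besides *Prdm14*, with 11.2 and 23.5 in the Go6983 samples and 2.98 and 5.11 in the NT samples (limma adjusted p = 0.0154, and 0.104, 0.0558 and 0.0868 without NT replicate 1, NT replicate 2 and Go6983 replicate 2).

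Of 47 nuclear receptor genes 5 were listed, with 3 called higher and 2 lower, again beside 68.8% and 29.7% over the table. *Nr1d1*, the circadian repressor Rev-erbα, had 525 and 441 normalized counts in the Go6983 samples and 1139 and 987 in the NT samples (log2 fold change -1.14, limma adjusted p = 0.000935). *Nr2f2* and *Rxrg* had at most 119.6 normalized counts in any sample, and each lost its call with 1 of several samples left out, up to limma adjusted p of 0.13 and 0.125 without Go6983 replicate 1 and NT replicate 2. Of 30 NK-type homeobox genes, *Nanog* among them, 7 were listed, with 5 called higher and 2 lower. *Nkx6-3*, a factor of gut and hindbrain, had 575 and 577 in the Go6983 samples and 227 and 213 in the NT samples (log2 fold change 1.39, limma adjusted p = 0.000446), and *Nkx2-9*, a factor of the ventral neural tube, had 255 and 201.2 in the Go6983 samples and 662 and 544 in the NT samples (log2 fold change -1.40, limma adjusted p = 0.00101). *Nkx1-2*, *Msx1*, *Msx2* and *Lbx2* lost their calls with 1 sample left out, at limma adjusted p of up to 0.105, 0.112, 0.081 and 0.0609 (without Go6983 replicate 1, NT replicate 2, Go6983 replicate 1 and Go6983 replicate 2). None of the paralogs named here reached the normalized count of *Nr5a2* in NT cells.

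Genes with a pattern closest to each factor were taken by the smallest root mean square difference of centred log2 values over the 4 samples, among the 893 other genes whose mean reached 50 normalized counts. Nearest to *Prdm14* were *Adam11*, *Stmn3* and *Cpt1a*, at 0.018, 0.019 and 0.021 log2 units. *Cpt1a*, the carnitine palmitoyltransferase of mitochondrial fatty acid import, had 11673 and 13127 normalized counts in the Go6983 samples and 5314 and 5666 in the NT samples. Nearest to *Nanog* were *App*, *Fam114a1* and *Sema6c*, at 0.015, 0.018 and 0.018. *App*, the amyloid precursor protein gene, had 3344 and 3477 in the Go6983 samples and 1624 and 1671 in the NT samples. For *Tbx3* they were *Gpc6*, *Kif26a* and *Ptgr1*, at 0.010, 0.011 and 0.012, and for *Nr5a2* they were *Ppp6r2*, *Eps8l2* and *Ppargc1b*, at 0.0084, 0.016 and 0.020. The factors were further from one another than from these genes, which follows largely from picking these genes as the closest of 893. Among the factors, *Nanog* and *Tbx3* were the nearest pair at 0.037 and *Prdm14* and *Nr5a2* the farthest at 0.088. *Tbx3* was in place 17 by closeness to *Nanog*, and *Nr5a2* in place 86 by closeness to *Prdm14*. The measure is a description over 4 samples of the same libraries.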

How the data were processed

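RNA-sequencing libraries of total RNA from 46C mESCs (2 Go6983, 2 NT) were analysed. The authors' deposited table gives log2 values per sample. Bowtie 0.12.2 and the build mm9 are named in the submitters' processing notes. The sources used here do not give the counter, annotation or normalization tool. The table also holds the authors' group means, fold changes, p-values and adjusted p-values, which were not used. Back on the linear scale, less the added 1, 100% of values came within 0.05 of whole reads times a constant per library, which gave size factors of 1.07 and 0.934 for the Go6983 samples and 1.01 and 0.979 for the NT samples. Replicates differed by more than counting error (chi-square of 7.36 per gene between the Go6983 samples and 10.5 between the NT samples), so none was taken for a second copy of another, which leaves unknown whether they are technical.

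The linear model was that of limma 3.58.1 (R 4.3.3, eBayes with trend, 3.63 prior and 2 residual degrees of freedom) on all 1577 genes, with no filter and no replicate block, and adjusted by the Benjamini-Hochberg method. Because every listed gene had been selected on these samples, variances and hence p-values can be underestimated. The fit was tested on simulated counts for this comparison, where it called 81.0% of the 2-fold changes (98.1% among genes with a mean of 50 or more) and 0.726% of the unchanged genes. In the simulation most genes were unchanged, rises and falls were balanced, and every gene had the same dispersion. The real list was selected for change, so these shares do not give the error rate of the calls here. Symbols, coordinates and exon lengths come from GENCODE M21 (GRCm38), which matched 1572 of the 1577 gene IDs. Promoters are RefSeq's. Named genes are the 4 factors, listed genes of the fixed lists and families, listed genes within 500 kb, and for each factor the 3 of closest pattern. Only some list members are named, picked after their values were seen, and some results are not reported here. The factors and lists were chosen with earlier results of these data known. The alternatives tried were other scalings of the libraries, pseudocounts of 0.1 and 10, filters at 10 and 50 normalized counts, limma without trend, limma-voom on the recovered reads, the replicate number as a block and each sample left out. Figures were drawn with matplotlib 3.10.9.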

Additional observations from a re-analysis of the deposited data

How the results depend on the processing

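The rise of each of the 4 factors kept its direction and an adjusted p below 0.05 in limma under every alternative run but 1. Under median ratio scaling of the libraries over these genes, which moved the fold changes of all genes by a median of -1.10 log2, the log2 fold changes were 0.069 for *Prdm14*, -0.063 for *Nanog*, 0.0085 for *Tbx3* and -0.0031 for *Nr5a2*, and 176 genes were called higher and 476 lower. By its construction this scaling centres a list that was selected to be mostly higher. With each library divided by its total over the listed genes, a median shift of -0.13, the values of the 4 were 1.06, 0.93, 1.00 and 0.99, in the same order. With 1 sample left out, the log2 fold change ranged from 1.11 to 1.28 for *Prdm14*, 1.02 to 1.10 for *Nanog*, 1.11 to 1.16 for *Tbx3* and 1.07 to 1.17 for *Nr5a2*, and the largest adjusted p of the 4 was 0.0337, for *Nanog* without Go6983 replicate 2. A lone sample is then assumed to vary like the other group.

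Over the whole table, 1085 genes were called higher and 469 lower. With 1 sample left out these counts ranged from 431 (without Go6983 replicate 2) to 858 (without NT replicate 1) higher and from 260 (without Go6983 replicate 2) to 315 (without NT replicate 2) lower, and with a filter at 50 normalized counts, which leaves 894 genes, they were 620 and 273. Replicate numbers tie the samples by number only, with a correlation of 0.032 between the replicate differences of the Go6983 and NT samples across 1577 genes. With the replicate block the counts were 1070 and 466, and the adjusted p of the 4 factors was between 0.0012 and 0.00175. Without trend it was between 0.00716 and 0.00745. The total depth of the libraries is unknown, and genes under 2-fold were not analysed here.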

Other observations

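The shares called over the whole table, 68.8% higher and 29.7% lower, stand behind each count that follows. Of 18 genes of the 2-cell-like state, in which Nr5a2 is known as a factor of genome activation in the early mouse embryo, *Zscan4a* and *Zscan4d* were listed and lower. *Zscan4a* had 43.9 and 66.4 normalized counts in the Go6983 samples and 180.0 and 116 in the NT samples (limma adjusted p = 0.0089, and 0.0839, 0.113 and 0.0726 without NT replicate 1, Go6983 replicate 1 and Go6983 replicate 2). *Zscan4d* (limma adjusted p = 0.0258) lost its call with any 1 of the 4 samples left out, at 0.0714 to 0.185. The *Zscan4* genes are near-identical copies, and how reads were assigned among them is not given. Of 12 trophoblast genes, *Tead4*, *Esx1* and *Tfap2c* were called higher, with log2 fold changes of 1.62, 1.30 and 1.30, and as 3 of the 3 listed this is read against 68.8% of all listed genes called higher. Of 18 formative and primed epiblast genes 12 were listed and called lower, where 29.7% of all listed genes were, with a median log2 fold change of -1.86. Of 10 mesendoderm genes *Lefty1* and *Kdr* were called lower, and of 10 neural genes *Lhx2* was called higher and *Pax6* and *Neurod1* lower. *Kdr* lost its call without NT replicate 1, NT replicate 2 or Go6983 replicate 2 (limma adjusted p = 0.154, 0.174 and 0.0922). *Pax6* lost it without NT replicate 1, Go6983 replicate 1 or Go6983 replicate 2 (limma adjusted p = 0.0629, 0.0848 and 0.101), and *Lhx2* without Go6983 replicate 1 or 2 (limma adjusted p = 0.0973 and 0.0774). Of 12 genes of PKC isoforms and the related protein kinases D, 2 were listed. *Prkch* had 106 and 80.3 normalized counts in the Go6983 samples and 235 and 234.0 in the NT samples (log2 fold change -1.33, limma adjusted p = 0.00202). *Prkcq* had 25.2 and 28.9 in the Go6983 samples and 10.9 and 6.13 in the NT samples (limma adjusted p = 0.0133, and 0.059, 0.0894 and 0.104 without NT replicate 2, Go6983 replicate 1 and Go6983 replicate 2).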
